A study of Homo sapiens with 12 samples.

Results

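The transcriptional effect of 4 h of methotrexate on Caco-2 spheroids that also received lactoferrin was measured by comparing the 3 libraries exposed to methotrexate with lactoferrin against the 3 libraries exposed to lactoferrin alone. These 6 of the series' 12 bulk RNA-seq libraries were taken by their labels and compared across all genes. The 3 control libraries, exposed to carrier fluid, stayed in the model and share in its estimate of the spread, whereas the 3 libraries exposed to methotrexate alone were left out because they carry abundant transcripts that the other 9 hardly hold. Caco-2, an established line from a human colorectal adenocarcinoma, takes on an absorptive, enterocyte-like phenotype when cultured. Cells of all groups were at passage 26, were suspended in Matrigel, grew for 5 days in DMEM with 20% fetal bovine serum and no change of medium, and were then exposed for 4 h. The sources used here do not give doses. They also do not say whether libraries of 1 group represent separate cultures, so p-values reflect the spread among these libraries, which may be technical.

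Methotrexate is an antifolate. It enters cells mainly through the reduced folate carrier SLC19A1, is retained as polyglutamates made by FPGS, and blocks folate metabolism. Its polyglutamates inhibit thymidylate synthase (TYMS) and the purine synthesis enzymes GART and ATIC, so that cells in S phase run short of thymidylate and purines and can activate p53 and its target CDKN1A. Lactoferrin is an iron-binding glycoprotein of milk and mucosal secretions that is taken up by intestinal epithelium.

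No gene changed at the threshold used. With edgeR's quasi-likelihood test and Benjamini-Hochberg adjustment over 15143 genes, 0 genes (0%) had an adjusted p under 0.05, and the lowest adjusted p was 0.19. At an unadjusted p under 0.05 there were 395 genes, 188 of them higher (1.24% of genes tested) and 207 lower (1.37%) with methotrexate. The libraries of the 2 groups did not overlap for 556 genes that were higher (3.67%) and 455 that were lower (3%). Limma-voom also called 0 genes, DESeq2 called 2, a fit of all 12 libraries called 3 and a fit without the filter on low counts called 9. The genes of those calls were VIM, MSN, LGALS1, GNLY, H19, IRF4, KRT81, RPS29 and the clone RP11-1023L17.2, all except the last higher with both agents.

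The absence of calls came with narrow intervals for abundant genes. Levels are in CPM, counts scaled to a common library total after TMM normalization, and are written as mean ± SD (n = 3). Changes are log2 fold changes ± SE of both agents minus lactoferrin alone. The median change over all tested genes was 0.01, with the middle 50% of genes between -0.09 and 0.10. Among the 12280 genes whose average log2 CPM was 1 or more, the 95% interval lay within a 2-fold change in either direction for 98.8%, and within 1.5-fold for 85.6%. Among the 2863 scarcer genes the interval lay within 2-fold for only 28%, and 139 of the 141 genes with an estimate beyond 2-fold were in this scarce class. For most scarce genes a 2-fold change was therefore not excluded.

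**Figure D1:**
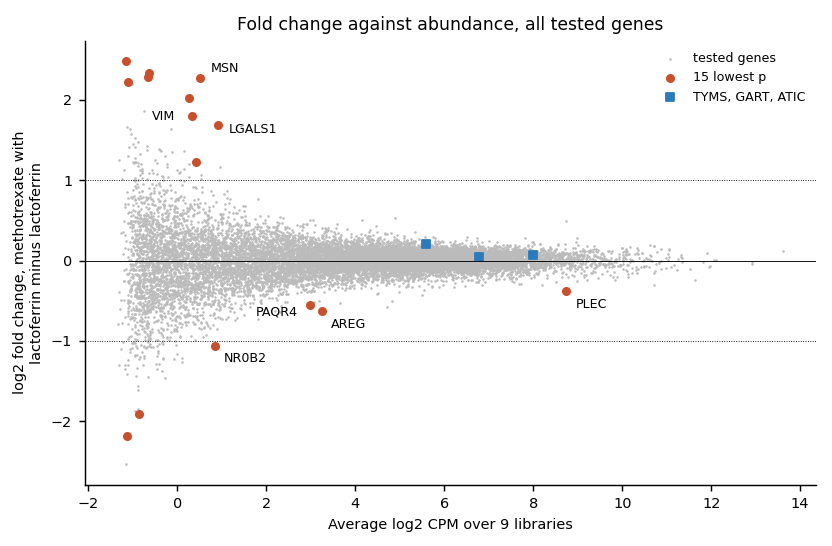
Log2 fold change (methotrexate with lactoferrin minus lactoferrin, vertical axis) against the average log2 CPM over 9 libraries (horizontal axis) for the 15143 tested genes, with dotted lines at a 2-fold change. The 15 genes of lowest p are in red and the antifolate targets TYMS, GART and ATIC in blue, and the cloud narrows around 0 as abundance grows.

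The 6 libraries held 18714054 to 22710347 counts, and the control libraries 19892094 to 23859094. Mitochondrially encoded genes took 2.43 to 2.98% of counts in the 6 libraries, and counts were found for 21436 to 22246 genes. A count of 0 allows a level of up to 0.132 to 0.16 CPM in these libraries (3 counts of the total, covering counting error only). In bulk RNA, fewer cells of a type and less RNA per cell cannot be told apart. One library stood apart from its group: replicate 3 of methotrexate with lactoferrin differed from replicates 1 and 2 of that group by a median absolute log2 difference of 0.231 and 0.286 over 12280 genes, whereas those differed from each other by 0.115. It was nearest to lactoferrin replicate 2, at 0.131. Pairs within the lactoferrin group differed by 0.12 to 0.199, and pairs across the 2 groups by 0.098 to 0.277, so that the distances across groups did not exceed those within groups. Without this library 1 gene was called and 710 had an unadjusted p under 0.05. Gene length moved with its deviation from the group mean (Spearman's rho across genes 0.276, against -0.235 to 0.127 for the other 8 libraries). Deviations within a group sum to 0, so the -0.195 and -0.235 of replicates 1 and 2 of that group are not independent of this value. The part of gene length in the results was not tested.

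**Figure D2:**
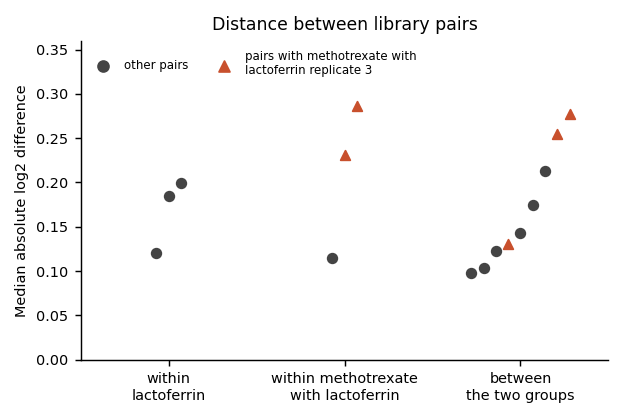
Median absolute log2 difference in level (vertical axis) for each pair of libraries within the lactoferrin group, within the methotrexate with lactoferrin group and between them, over 12280 genes. Red triangles are pairs with replicate 3 of methotrexate with lactoferrin, which lies 0.231 and 0.286 from its own group and 0.131 from lactoferrin replicate 2.

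The enzymes that methotrexate and its polyglutamates inhibit had nearly the same transcript levels with and without the drug. TYMS (ENSG00000176890, chromosome 18, 657604 to 673578 on hg19), which makes thymidylate, stood at 43.4, 47.4 and 43.8 CPM with lactoferrin and at 51.8, 49.4 and 53.4 CPM with both agents. All 3 libraries with methotrexate were above all 3 without it. The change was nonetheless small, 0.20 ± 0.10 with an interval of -0.00 to 0.40, and did not pass edgeR's quasi-likelihood test (unadjusted p = 0.0545, adjusted p = 0.9999). The control libraries, at 51.1, 45.2 and 48.8 CPM, spanned much of both groups.

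GART and ATIC, which carry out formyl transfers in purine synthesis, were at 0.04 ± 0.09 (interval -0.16 to 0.25) and 0.07 ± 0.10 (-0.14 to 0.28). ATIC held 264.1, 232.5 and 223.8 CPM with lactoferrin and 254.7, 248.7 and 251.8 CPM with both agents, within the spread of the former. With SHMT2 (0.06 ± 0.12), the mitochondrial serine hydroxymethyltransferase, the intervals of TYMS, GART and ATIC all lay within a 1.5-fold change. The 5 listed antifolate targets had a median of 0.07, with 0 called, beside 0.01 over all genes.

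Uptake and retention of the drug involve SLC19A1, which went from 91.3, 72.3 and 98.9 CPM with lactoferrin to 76.5, 85.7 and 63.8 CPM with both agents. The groups overlapped and the change was -0.22 ± 0.16 (interval -0.55 to 0.12). FPGS, which adds the glutamates, was at -0.16 ± 0.16, and GGH, the hydrolase that removes them, at 0.08 ± 0.09. The proton-coupled folate transporter SLC46A1, the intestinal carrier active at acid pH, held 40.8, 40.0 and 43.3 CPM with lactoferrin and 49.4, 51.2 and 46.0 CPM with both agents. These groups did not overlap, but the change of 0.24 ± 0.10 did not pass the test (unadjusted p = 0.0294, adjusted p = 0.9999 by edgeR's quasi-likelihood test). The efflux pumps ABCC2 (0.07 ± 0.09) and ABCG2 (-0.03 ± 0.11) stayed near 0, and over the 15 tested genes of uptake, polyglutamation and efflux the median was 0.00.

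**Figure D3:**
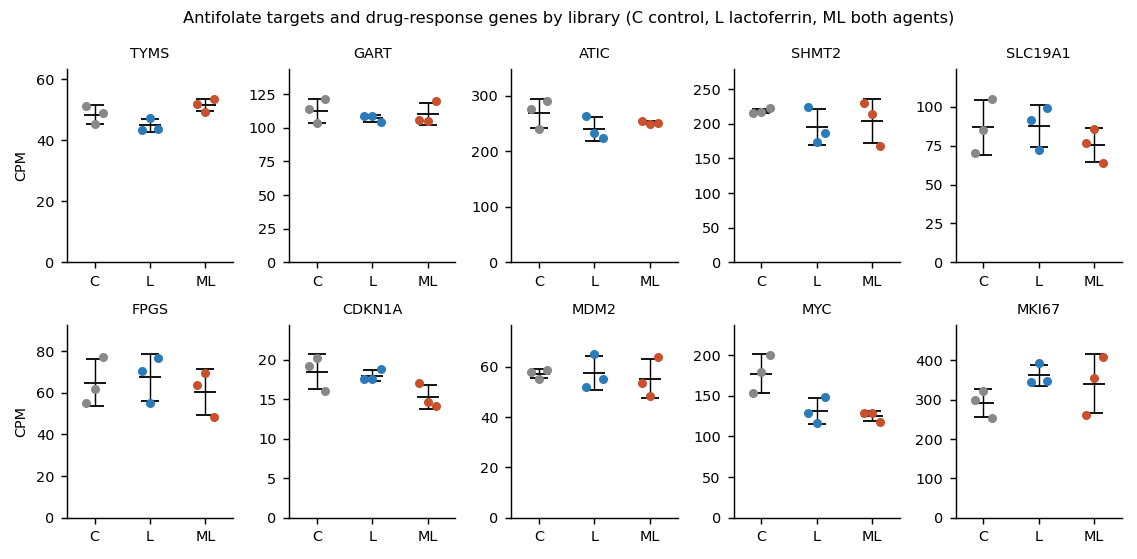
Levels in CPM (vertical axes, from 0) of 10 genes of methotrexate action and response in the control (C), lactoferrin (L) and methotrexate with lactoferrin (ML) libraries, with bars for mean ± SD of 3 libraries. The L and ML points overlap for all except TYMS, at 44.9 and 51.5 CPM on average, and CDKN1A, at 18.0 and 15.3 CPM.

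Folate and nucleotide pathways were level as a whole. The 18 tested genes of the folate one-carbon cycle had a median of 0.03, from MTHFS at -0.32 ± 0.61 to ALDH1L2 at 0.17 ± 0.36, both scarce. Purine synthesis and salvage had a median of 0.03 over 13 genes, with its highest value for the salvage enzyme HPRT1 (0.21 ± 0.13). Pyrimidine and deoxynucleotide synthesis had a median of 0.00 over 19 genes, and the ribonucleotide reductase subunit RRM2, which supplies deoxynucleotides for replication, was at -0.01 ± 0.09 (interval -0.20 to 0.18). No gene of these 3 lists had an unadjusted p under 0.05.

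Extracellular adenosine, which polyglutamated methotrexate is known to raise by blocking ATIC, is made, bound and cleared by a further 15 tested genes, with a median of 0.05. ENTPD1, the ectonucleotidase CD39, held 11.4, 12.6 and 12.9 CPM with lactoferrin and 14.7, 14.1 and 15.3 CPM with both agents. ADA, which deaminates adenosine, held 14.96, 14.26 and 14.45 CPM against 12.6, 12.2 and 12.8 CPM. The groups did not overlap in either gene. The changes were 0.26 ± 0.12 and -0.21 ± 0.11, with unadjusted p = 0.0447 and 0.0838, and neither passed the adjusted test. The receptor ADORA2B (0.29 ± 0.24) and the nucleotidase NT5E (0.19 ± 0.20), which makes adenosine from AMP, overlapped between groups.

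No p53 target passed the test, and CDKN1A had a lower, not a higher, estimate with methotrexate. CDKN1A (ENSG00000124762, chromosome 6, 36644305 to 36655116), the p21 inhibitor of cyclin-dependent kinases, held 17.6, 17.6 and 18.8 CPM with lactoferrin and 17.1, 14.7 and 14.2 CPM with both agents. All 3 libraries with both agents were below all 3 with lactoferrin, by -0.23 ± 0.13 (interval -0.50 to 0.04), which did not pass the test (unadjusted p = 0.0876, adjusted p = 0.9999 by edgeR's quasi-likelihood test).

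MDM2, the p53 ubiquitin ligase and a p53 target, was at -0.06 ± 0.12 (interval -0.31 to 0.20). Of 29 tested p53 targets, 0 were called, 12 were above 0 and the median was -0.02. The highest estimate was that of PMAIP1, which encodes the apoptosis inducer NOXA, at 0.56 ± 0.44, from only 0.431 ± 0.165 CPM to 0.637 ± 0.0256 CPM. C12orf5, the metabolic phosphatase TIGAR (0.25 ± 0.11), and the kinase PLK2 (0.31 ± 0.14) had unadjusted p = 0.0349 and 0.0403. Their control levels, 28.1 ± 2.27 and 7.10 ± 0.307 CPM, were above or close to those with both agents, 24.0 ± 0.663 and 7.44 ± 0.0358 CPM.

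Cell cycle, replication and repair genes also stayed level. MKI67, a proliferation marker, held 345.9, 392.1 and 347.3 CPM with lactoferrin and 260.2, 354.9 and 407.4 CPM with both agents, which spread over a wider range, and its change was -0.09 ± 0.14. PCNA, the sliding clamp of DNA polymerase, was at 0.02 ± 0.09 (interval -0.17 to 0.21). The 32 genes of G1/S and replication had a median of 0.00, the 27 of G2/M 0.05 and the 29 of DNA repair 0.04. CCNA2, the cyclin of S phase and G2, was the lowest of the G2/M genes, at 126.7, 134.4 and 140.9 CPM with lactoferrin and 117.7, 116.9 and 122.6 CPM with both agents. Its groups did not overlap and its change was -0.17 ± 0.09 (unadjusted p = 0.0656, adjusted p = 0.9999 by edgeR's quasi-likelihood test). Histone genes, 25 tested, had a median of -0.10, with HIST1H4B at -0.88 ± 0.59 on 5 to 12 counts per lactoferrin library. Histone genes have near-identical copies and are uncertain one by one.

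Stress, death and signalling lists gave the same picture. Medians were 0.01 for 25 apoptosis genes, 0.04 for 31 genes of the integrated stress response, 0.02 for 19 of the unfolded protein response, 0.05 for 24 NRF2 targets and 0.02 for 26 immediate early factors. HMOX1, the heme oxygenase induced by oxidative stress, was at 0.03 ± 0.11, and EGR1, an immediate early transcription factor, at 0.25 ± 0.13 with overlapping groups. Heat shock genes had the highest median of the lists with at least 5 tested members, 0.09 over 16 genes, and 4 of them did not overlap between groups and were higher, beside 3.67% of all genes tested. The mitochondrial co-chaperonin HSPE1 had the largest change of this list, 0.53 ± 0.22, from 24.5, 19.8 and 25.3 CPM to 34.2, 42.4 and 23.9 CPM. Replicate 3 with both agents lay inside the lactoferrin range in that gene, and its partner HSPD1 was at 0.09 ± 0.10. MYC held 128.8, 116.7 and 148 CPM with lactoferrin and 128.2, 128.6 and 118 CPM with both agents (-0.07 ± 0.12).

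No gene of iron handling or lactoferrin uptake passed the test. TFRC, the transferrin receptor, was at 0.05 ± 0.11 (interval -0.19 to 0.29). FTH1, the ferritin heavy chain, ranged from 179.1 to 499.8 CPM within the lactoferrin group alone, was at -0.17 ± 0.27 and has many near-identical copies in the genome. The LTF gene itself held 5, 11 and 11 counts with lactoferrin and 15, 8 and 13 with both agents, too few to exclude a 2-fold change (0.29 ± 0.60, interval -1.003 to 1.57). The 23 iron genes had a median of 0.05 and the 12 candidate lactoferrin receptors -0.10.

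Genes of epithelial identity were level. The caudal factor CDX2 was at -0.03 ± 0.09, the microvillus protein VIL1 at -0.01 ± 0.09, the stem cell receptor LGR5 at 0.11 ± 0.12 and the intestinal cadherin CDH17 at 0.18 ± 0.10. Medians were 0.02 for 26 brush border genes, 0.00 for 23 tight junction genes and 0.02 for 24 intestinal transcription factors. Among lipid carriers, APOB, the structural protein of chylomicrons, went from 1723, 1906 and 1920 CPM with lactoferrin to 1545, 1189 and 1769 CPM with both agents. APOE, a ligand of lipoprotein receptors, went from 3133, 3443 and 3903 CPM to 2970, 3128 and 2768 CPM. APOB overlapped by 1 library and APOE did not overlap. The changes were -0.30 ± 0.12 and -0.24 ± 0.11, with unadjusted p = 0.03 and 0.0458 and an adjusted p = 0.9999 by edgeR's quasi-likelihood test. The median of the 25 lipid handling genes was 0.00.

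Over all 50 lists, 948 different genes were tested and 0 were called. Intervals lay within 2-fold for 886 of them and within 1.5-fold for 762. An unadjusted p under 0.05 was found for 13 higher genes (1.37%) and 8 lower genes (0.844%), close to the shares of 1.24% and 1.37% over all genes. Of the 46 lists with at least 5 tested members, 45 had a median within 0.1 of 0. The exception was the adipocyte marker list (-0.20), whose 5 tested members are a small part of 12 listed.

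**Figure D4:**
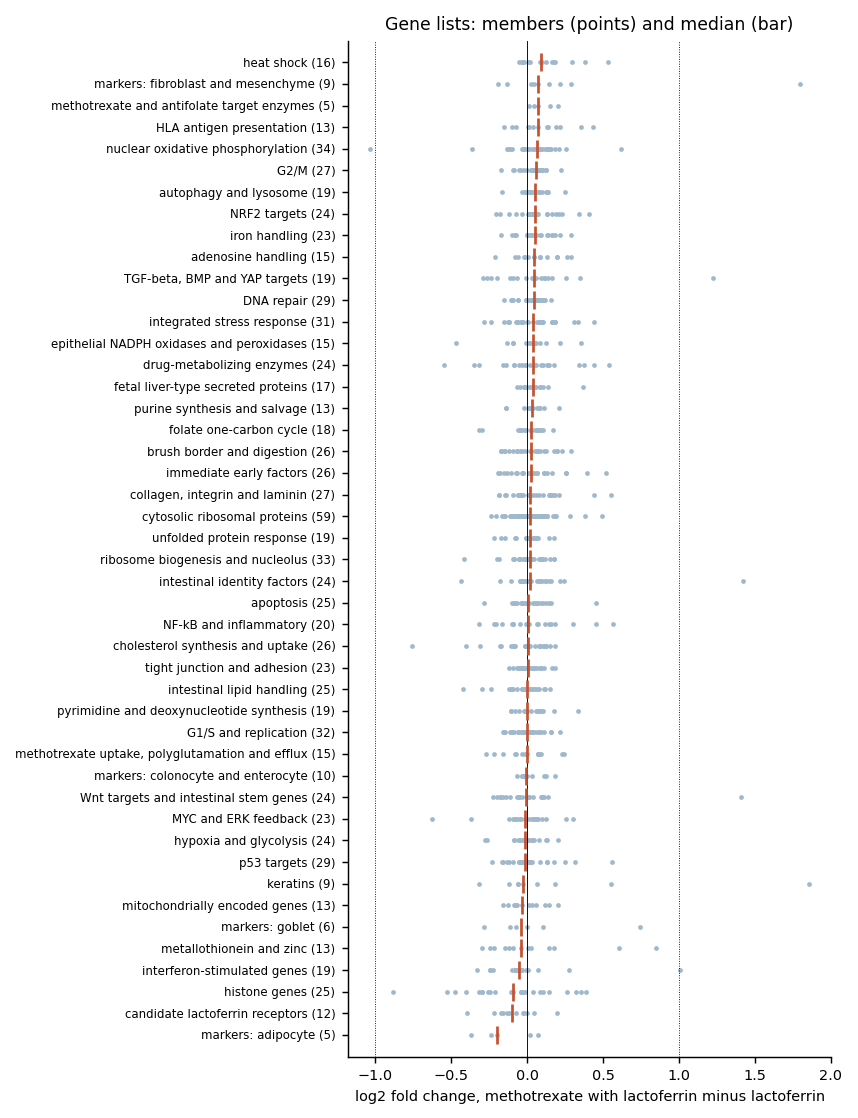
Log2 fold change (methotrexate with lactoferrin minus lactoferrin, horizontal axis) of the tested members of 46 gene lists, ordered by median, with the number of tested members in parentheses. Points are genes, red bars medians and dotted lines 2-fold changes; medians run from -0.20 to 0.09.

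The lowest p-values belonged to 3 scarce genes of the cytoskeleton and matrix that were higher with both agents. VIM (ENSG00000026025, chromosome 10, 17270258 to 17279592), the intermediate filament vimentin of mesenchymal cells, had 14, 12 and 10 counts with lactoferrin and 44, 41 and 51 with both agents. The control libraries had 15, 16 and 13 counts, so the lactoferrin and control libraries were alike and the 3 libraries with both agents stood above all 6. The level went from 0.619 ± 0.0860 to 2.17 ± 0.239 CPM, a change of 1.79 ± 0.30 (interval 1.15 to 2.44, edgeR's quasi-likelihood adjusted p = 0.19).

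MSN (ENSG00000147065, chromosome X, 64887537 to 64961791) encodes moesin, which links actin to the plasma membrane. It had 15, 9 and 9 counts with lactoferrin, 61, 54 and 59 with both agents and 21, 13 and 7 in control. LGALS1 (ENSG00000100097, chromosome 22, 38071615 to 38075813) encodes galectin-1, a secreted lectin, and had 22, 18 and 18 counts with lactoferrin, 58, 78 and 65 with both agents and 30, 22 and 21 in control. Neither gene overlapped between groups. The changes were 2.27 ± 0.39 and 1.68 ± 0.29, each with an adjusted p = 0.19 by edgeR's quasi-likelihood test. VIM, MSN and LGALS1 were picked by lowest p, so their lack of overlap is not a separate result.

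The calls of these 3 genes depended on the fit. Without the filter on low counts, edgeR's quasi-likelihood test gave MSN an adjusted p = 2.09e-06, LGALS1 0.000298 and VIM 0.00572. DESeq2, also run without that filter, gave MSN an adjusted p = 0.00917 and LGALS1 0.0339. The fit of all 12 libraries gave VIM and MSN 0.00299 and LGALS1 0.00756. That fit takes part of its spread from the methotrexate libraries, which hold far more of these transcripts. The fit of the 6 compared libraries gave VIM 0.427, MSN 0.130 and LGALS1 0.413 by edgeR's quasi-likelihood test. Over all alternatives the adjusted p ranged up to 1 for each of them, while the change stayed between 1.701 and 1.9 for VIM, 2.15 and 2.54 for MSN, and 1.503 and 1.81 for LGALS1. Without replicate 3 of methotrexate with lactoferrin the changes were 1.70, 2.26 and 1.71.

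Transcripts of the same genes were abundant in the methotrexate libraries that were left out, with 24755 to 37132 counts of VIM, 8809 to 11197 of MSN and 34739 to 54112 of LGALS1. Other mesenchymal and matrix genes that were abundant there differed in whether the 2 groups overlapped. The collagen chain COL4A1 had 55, 72 and 65 counts with lactoferrin and 118, 99 and 89 with both agents. Its change was 0.55 ± 0.19 (adjusted p = 0.9999 by edgeR's quasi-likelihood test), and methotrexate alone gave 134195 to 153316 counts. FSTL1 and CDH2, described below, also did not overlap, and had 22887 to 26463 and 1414 to 1689 counts with methotrexate alone. SPARC and COL1A2, in contrast, overlapped between the 2 groups, with changes of 0.21 ± 0.28 and 0.14 ± 0.43. SPARC, a matrix glycoprotein, had 57, 40 and 43 counts with lactoferrin and 63, 50 and 63 with both agents, against 152450 to 191801 with methotrexate alone. COL1A2, a chain of type I collagen, had 16, 22 and 9 against 20, 19 and 17, and 88266 to 98089 with methotrexate alone. Of 17 fibroblast markers, COL15A1, MFAP5 and DPT were at 0 in all 6 libraries, and the summed level of the list was 419 to 444 CPM with lactoferrin and 395 to 418 CPM with both agents, mostly from COL5A2 and without overlap, lower with both agents. ADIPOQ, the adiponectin gene, had 1 count in each group, and the 12 adipocyte markers summed to 126 to 148 CPM with lactoferrin and 122 to 131 CPM with both agents, which overlapped. Leukocyte markers, 12 genes, gave sums of 50.9 to 53.5 CPM with lactoferrin and of 51.0 to 56.4 CPM with both agents, which also overlapped. These sums came mostly from CD14, CSF1R and LYZ and say little about scarce members. The B cell marker MS4A1 was at 0 in all 6 libraries. PTPRC, the pan-leukocyte antigen CD45, had 5, 1 and 2 counts against 13, 7 and 12, and TYROBP 1, 0 and 2 against 3, 3 and 3. PRF1, outside the list, had 12, 12 and 20 against 46, 23 and 42. Other scarce members of the list overlapped between groups. CD3E had 7, 13 and 2 counts against 8, 11 and 5, and CD79A 2, 7 and 6 against 10, 1 and 1. ITGAM had 13, 3 and 6 against 4, 9 and 9, and CD3D 5, 3 and 1 against 7, 7 and 2. Endothelial markers summed to 31.9 to 37.1 CPM with lactoferrin and 25.7 to 38.4 CPM with both agents, mostly from EGFL7. Among them TIE1 had 3, 3 and 2 counts against 10, 9 and 11, and CLDN5 1, 1 and 4 against 6, 14 and 6. CDH5 had 8, 8 and 7 against 10, 11 and 13. These genes were higher without overlap, but none passed the filter on low counts. VWF, at 52, 35 and 28 against 82, 41 and 47, overlapped, as did EGFL7. ESAM, in contrast, was lower, with 19, 27 and 28 against 16, 17 and 17. The part of other cell types in the VIM, MSN and LGALS1 values was not tested.

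A further 7 scarce genes described here were among the 15 of lowest p, 5 of them higher and 2 lower with both agents, and had an adjusted p = 0.9999 in edgeR's quasi-likelihood test. FSTL1, a secreted glycoprotein, had 8, 2 and 2 counts against 27, 23 and 17, and CDH2, the N-cadherin of mesenchymal and neural cells, 7, 5 and 2 against 32, 31 and 12. GNLY, the granulysin of cytotoxic lymphocytes, had 4, 13 and 12 counts against 21, 55 and 51, but control held 26, 16 and 8. RAB34, a small GTPase, had 2, 2 and 5 counts against 17, 13 and 17. With methotrexate alone, RAB34 had 879 to 1200 counts and GNLY 105 to 222. The pseudogene RNPS1P1 was at 2.48 ± 0.73, and the antisense transcript RBM12B-AS1 and the clone AC024940.1 were at -1.91 ± 0.57 and -2.18 ± 0.67. In all 7 of these genes the groups did not overlap, with at most 55 counts in any of the 6 libraries. FSTL1, CDH2, RAB34 and RNPS1P1 passed the filter on low counts only through the group with both agents. RBM12B-AS1 and AC024940.1 passed it only through the lactoferrin group. These 7 genes were also picked by lowest p, so their lack of overlap is not a separate result.

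AREG, PLEC, PAQR4 and NR0B2, also among these 15 genes, were lower with both agents and did not pass the test (adjusted p = 0.9999). AREG (ENSG00000109321, chromosome 4, 75310851 to 75320726), the EGF receptor ligand amphiregulin, held 9.87, 11.1 and 13.7 CPM with lactoferrin and 7.64, 7.38 and 7.34 CPM with both agents. The change was -0.63 ± 0.14 (interval -0.94 to -0.32, unadjusted p = 0.000591), with control in between at 9.28 ± 0.281 CPM. PLEC, the cytolinker plectin, held 465.2, 445.4 and 548.4 CPM with lactoferrin and 380.1, 380.8 and 358.8 CPM with both agents (-0.38 ± 0.10), with control at 428 ± 38.0 CPM. The membrane receptor gene PAQR4 went from 9.74 ± 1.08 to 6.64 ± 0.520 CPM (-0.55 ± 0.15), near the control level of 7.10 ± 0.924. NR0B2, the nuclear receptor SHP that represses bile acid synthesis, had 29, 32 and 47 counts with lactoferrin and 20, 21 and 15 with both agents, against 46, 54 and 53 in control (-1.06 ± 0.30). In AREG, PLEC and NR0B2 all 3 libraries with both agents were also below all 3 control libraries, whereas PAQR4 overlapped with control. Because these genes too were picked by lowest p, their separation from the lactoferrin libraries is not a separate result.

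**Figure D5:**
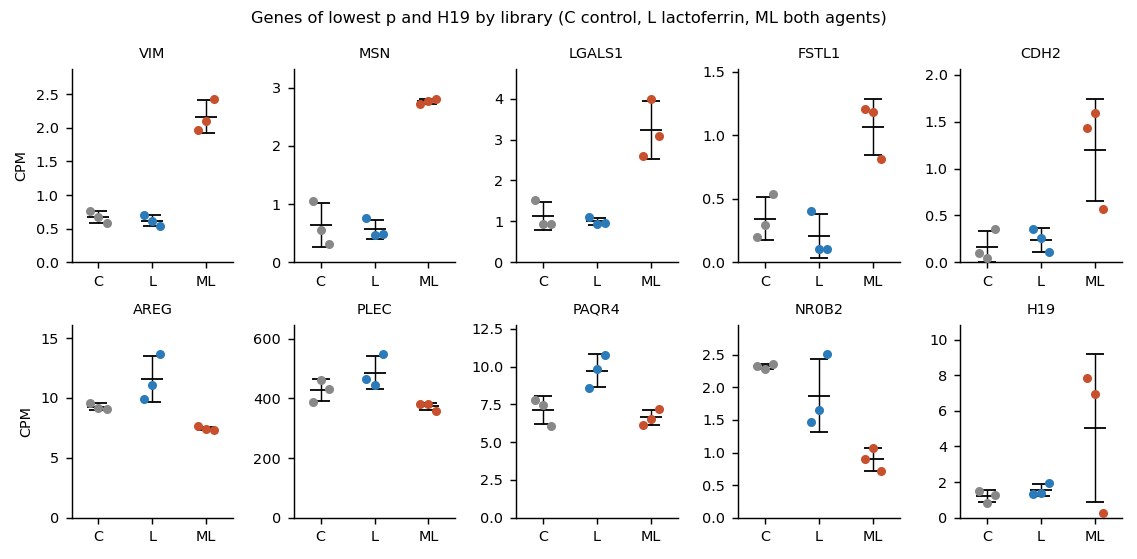
Levels in CPM (vertical axes, from 0) of 9 of the 15 genes of lowest p, and of H19, in control (C), lactoferrin (L) and methotrexate with lactoferrin (ML) libraries, with bars for mean ± SD of 3 libraries. VIM, MSN and LGALS1 are higher in every ML library, whereas H19 is high in 2 ML libraries and low in the third.

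Some genes were high in only part of the group. H19 (ENSG00000130600, chromosome 11, 2016406 to 2022700), an imprinted long noncoding RNA, had 27, 27 and 37 counts with lactoferrin, 176, 136 and 6 with both agents and 30, 20 and 29 in control. In the methotrexate libraries that were left out, H19 was abundant, with 64771 to 78967 counts. It was the 1 gene called when replicate 3 of methotrexate with lactoferrin was left out (2.24, adjusted p = 0.00119 by edgeR's quasi-likelihood test), against 1.68 ± 0.66 with it. RPS29, a ribosomal protein gene, went from 360.1, 211.5 and 421.8 CPM to 541.9, 641.1 and 212.3 CPM, with replicate 3 again the low library. KRT81, a hair keratin, had 0 counts in all lactoferrin libraries and 17, 18 and 3 with both agents, and IRF4, a lymphocyte transcription factor, 3, 0 and 1 against 5, 4 and 47. These 4 genes were among the 9 called without the filter on low counts. With methotrexate alone, KRT81 had 2 to 7 counts and IRF4 29 to 61.

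Beside these values stand those of methotrexate alone against control, from a fit of those 6 libraries that shares no library with the comparison above. In that fit 11465 of 17317 genes were called (66.2%), 6446 higher and 5019 lower. Of the genes tested in both fits, 2350 were called and over 2-fold higher with methotrexate alone. With lactoferrin present, these 2350 had a median change of 0.02 on adding methotrexate, 53.8% of them above 0, beside 52.9% of all genes tested in both fits. The 1039 genes called and over 2-fold lower had a median of 0.01, with 51.6% above 0. The 95% interval of the change in the presence of lactoferrin excluded the estimate for methotrexate alone in 97.2% of the higher and 94.7% of the lower genes, beside 65% of all genes tested in both fits. The first 2 shares are over genes chosen for a large estimate with methotrexate alone. The shares take that estimate as fixed, and the difference between the 2 comparisons was not tested.

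For CDKN1A the changes were 5.88 ± 0.10 for methotrexate alone and -0.23 ± 0.13 with lactoferrin present. They were -1.06 ± 0.09 and 0.20 ± 0.10 for TYMS, and -1.13 ± 0.18 and -0.09 ± 0.14 for MKI67. The list medians for methotrexate alone were -0.95 for G1/S genes, -1.13 for G2/M genes, 0.83 for p53 targets and 10.57 for fibroblast markers, beside 0.00, 0.05, -0.02 and 0.07 with lactoferrin present. The methotrexate libraries also had 47459811 to 60591667 counts and 6.67 to 7.54% mitochondrial counts. The drug, the depth and the extra transcripts cannot be told apart in those libraries.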

How the data were processed

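Per the series' design text and labels, RNA of Caco-2 spheroids was sequenced as read pairs. The authors deposited 1 table of raw counts for 48162 genes in 12 columns, with hg19 coordinates and gene length in bases, used here for levels per kilobase only. Per the submitters' processing notes, CASAVA, STAR, DESeq2 and hg19 were used; the sources used here do not give versions, roles, the counting program, annotation or strand, so antisense genes and near-identical copies are uncertain.

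Columns were matched to samples by name. Counts of the control, lactoferrin and combined groups (9 libraries) were filtered with filterByExpr, scaled by TMM and fitted in edgeR 4.0.16 (R 4.3.3) with 1 mean per group. The quasi-likelihood test was adjusted by Benjamini-Hochberg over 15143 genes and called under 0.05, with a biological coefficient of variation of 12.2% and 6 residual degrees of freedom. Standard errors are Wald errors, and intervals (95%) use the moderated degrees of freedom, with a median of 13.8. The scripts were tested on simulated data. Named were the genes that would have been called with the largest changes (0), the 15 of lowest p, called list members (0) and 15 genes always given; further list members (the ends of a list, unadjusted p under 0.05, or a known role) and the genes called only under an alternative were chosen after their values were seen. The comparison, the 50 gene lists (1095 of 1098 entries found) and the rules were chosen with earlier results of these data known. No list was tested as a set. Some single-gene results are not reported here; the genes concerned remain in every fit and count.

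The main fit did not pair libraries by replicate number. Deviations of the same number correlated at 0.162, -0.301 and -0.236 between the compared groups. Deviations from a mean of 3 libraries sum to 0, so these values cannot show whether libraries of the same number were handled together. No library pair was identical within sampling noise (chi-square per gene 7.43 to 35.8). Alternatives were RLE and upper quartile scaling, no filter, DESeq2 1.42.0, limma-voom (limma 3.58.1), fits of 6 and of 12 libraries, a replicate block, the submitters' cut-offs of 2-fold and 0.01, leaving out each compared library and, added after seeing the data, each control library.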

Additional observations from a re-analysis of the deposited data

How the results depend on the processing

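The count of called genes was 0 with RLE or upper quartile scaling, limma-voom, the 6 compared libraries alone, the submitters' cut-offs and a replicate block (lowest adjusted p = 1 by edgeR's quasi-likelihood test). Without the filter on low counts 9 genes were called, 8 higher and 1 lower. DESeq2 called 2 and the fit of all 12 libraries 3, all higher. Leaving out 1 library gave 0 to 1 called, higher only (H19, without replicate 3 of both agents). Genes with an unadjusted p under 0.05, 395 in the main comparison, numbered 265 with the replicate block and 271 to 710 with 1 library left out, 628 without replicate 2 and 710 without replicate 3 of both agents; the cause was not tested. Named genes kept their direction and side of the threshold in 455 of 475 alternative values. The 11 changes of direction, all on leaving out 1 library, fell on 8 genes with small changes. Their log2 changes ranged from -0.50 to 0.13 for FTH1, -0.15 to 0.026 for MYC, -0.23 to 0.069 for MKI67, -0.037 to 0.19 for SHMT2, -0.016 to 0.48 for LTF, -0.17 to 0.044 for MDM2, -0.022 to 0.075 for GART and -0.076 to 0.14 for TFRC. The other 9 were calls gained by VIM, MSN, LGALS1 and GNLY. List medians moved beyond the spread between replicates in 30 of 850 alternative values. Depth limits the scarce genes: an average log2 CPM under 1 left intervals within 2-fold for 28% of genes.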
